A study of Homo sapiens with 6 samples.

Results

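The genes described here encode the subunits, activators, inhibitor and assembly chaperones of the human proteasome, together with the transcription factor NFE2L1. They were selected on their symbols, which begin with PSMA to PSMG followed by a number, with POMP and NFE2L1 added, and made up 50 of the 18216 genes in the table. The family itself was chosen from results of these same libraries, in which proteasome genes were often lower with SNS-032. The values with SNS-032 and with DMSO are therefore a description of the members, and the tests on them are no independent evidence of a direction. The symbol PSMC3IP matched by its letters alone and belongs to a cofactor of meiotic recombination, which left 49 genes with a role in the proteasome. PSMB11, a catalytic subunit made in thymic epithelium, was listed at 0, 0.04 and 0.07 FPKM with SNS-032 and at 0 in each DMSO library, and was not tested. The other 49 members, 48 of them with a role in the proteasome, passed the filter on low values, a group mean of 1 FPKM or more with SNS-032 or with DMSO, as did 12239 genes in all.

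REH cells are an established line from a human leukemia of B-cell precursors. SNS-032 inhibits cyclin-dependent kinases, CDK9 among them, the kinase that releases paused RNA polymerase II into productive elongation. The cells received 200 nM SNS-032 for 24 h, or DMSO, the solvent, for 24 h, and RNA was sequenced from 3 libraries of each group. The labels name no genetic change in either group and do not say whether the 3 libraries came from separate cultures, so the tests measure the spread between libraries, which may be technical.

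Expression was given as FPKM, fragments scaled to transcript length and to the mapped fragments of the library, with no read counts, so the depth of each library is unknown. The values within a library are relative to its total, and a lower FPKM cannot separate fewer cells carrying a transcript from less RNA per cell. All 9 B precursor markers examined had at least 1 FPKM in both groups, with summed levels of 999.2 to 1114 FPKM with SNS-032 and 1731 to 1873 FPKM with DMSO. Of these 9, 7 lay lower in every SNS-032 library, with most of the difference in IGLL1 and VPREB1, while CD79A, at 455.57 to 529.56 FPKM with SNS-032 and 300.55 to 327.15 FPKM with DMSO, and EBF1, at 82.74 to 86.25 FPKM with SNS-032 and 76 to 76.31 FPKM with DMSO, lay higher. The 4 T cell markers in the table summed to 2.25 to 4.24 FPKM with SNS-032 and 0.28 to 0.37 FPKM with DMSO. Most of this was CD3G, at 2.02 to 3.85 FPKM with SNS-032 and 0.18 to 0.32 FPKM with DMSO. The 3 erythroid markers in the table stayed below 1 FPKM in both groups. The 5 myeloid markers summed to 18.73 to 21.59 FPKM with SNS-032 and 8.2 to 8.65 FPKM with DMSO. Of the myeloid sum, LYZ made up 15.71 to 17.69 FPKM with SNS-032 and 2.96 to 3.26 FPKM with DMSO. CD14 was at 1.57 to 2.98 FPKM with SNS-032 and 0.03 to 0.14 FPKM with DMSO. CSF1R was at 1.02 to 1.08 FPKM with SNS-032 and 4.65 to 5.2 FPKM with DMSO. No marker in the table was at 0 in all libraries, and the part of these shifts in the proteasome values was not tested. Of the summed FPKM, the top 50 genes took 29.2% to 31.4% with SNS-032 and 21.0% to 21.3% with DMSO.

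The proteasome degrades proteins tagged with ubiquitin. Its core particle is a barrel of stacked alpha and beta rings, in which the beta subunits PSMB6, PSMB7 and PSMB5 carry the caspase-like, trypsin-like and chymotrypsin-like activities. A regulatory particle of ATPases and lid subunits caps the barrel, binds ubiquitin chains, removes them and unfolds the substrate, and dedicated chaperones assemble both particles. In lymphoid cells the inducible subunits PSMB9, PSMB10 and PSMB8 can replace the constitutive catalytic subunits and shape the peptides loaded on MHC class I, and NFE2L1 is the factor that raises proteasome genes when proteasome activity is short.

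Promoters of the genes on which the description turns are shown first, with matches to short motifs marked, and binding was not measured. They come from RefSeq on GRCh38.p14, run from 250 bases before to 50 bases after the annotated start and are written on the gene's strand. Capitals mark every match on either strand to TGACNNNGC, the antioxidant response element bound by NFE2L1, to CCGGAAG, an ETS site, and to TTTCNNTTTC, the interferon-stimulated response element. PSMG1 and PSMD12 are the members with the lowest and the highest log2 fold change. The other 4 are genes that interferon is known to raise and that held a TTTCNNTTTC match. The promoter of PSMB9, a further inducible subunit, held TGACNNNGC but no TTTCNNTTTC match, and is not shown.
PSMG1, chr21:39183402-39183701, minus strand: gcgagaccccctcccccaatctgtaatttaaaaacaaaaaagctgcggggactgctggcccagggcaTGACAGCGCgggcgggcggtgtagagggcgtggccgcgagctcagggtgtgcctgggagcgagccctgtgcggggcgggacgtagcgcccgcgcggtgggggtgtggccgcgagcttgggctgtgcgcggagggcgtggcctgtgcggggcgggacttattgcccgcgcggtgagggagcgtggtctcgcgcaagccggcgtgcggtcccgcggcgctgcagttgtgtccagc
PSMD12, chr17:67366528-67366827, minus strand: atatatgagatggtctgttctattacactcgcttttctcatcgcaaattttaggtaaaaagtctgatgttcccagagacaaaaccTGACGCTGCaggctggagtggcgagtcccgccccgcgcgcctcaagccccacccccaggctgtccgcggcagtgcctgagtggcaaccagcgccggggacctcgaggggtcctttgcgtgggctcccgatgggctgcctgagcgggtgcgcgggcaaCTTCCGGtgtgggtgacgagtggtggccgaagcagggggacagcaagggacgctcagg
PSMB8, chr6:32843998-32844297, minus strand: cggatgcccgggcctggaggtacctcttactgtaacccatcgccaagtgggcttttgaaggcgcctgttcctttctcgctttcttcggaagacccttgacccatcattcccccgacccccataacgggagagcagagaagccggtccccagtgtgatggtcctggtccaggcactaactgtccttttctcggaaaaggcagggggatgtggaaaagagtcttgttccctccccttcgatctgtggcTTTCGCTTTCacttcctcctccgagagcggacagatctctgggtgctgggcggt
PSMB10, chr16:67936801-67937100, minus strand: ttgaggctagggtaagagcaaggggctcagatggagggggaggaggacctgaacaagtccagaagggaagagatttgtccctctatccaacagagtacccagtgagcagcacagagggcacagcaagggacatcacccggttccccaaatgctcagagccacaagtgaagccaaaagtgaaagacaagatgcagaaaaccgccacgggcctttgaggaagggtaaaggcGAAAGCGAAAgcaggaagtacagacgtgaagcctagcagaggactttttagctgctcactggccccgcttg
PSME1, chr14:24135944-24136243, plus strand: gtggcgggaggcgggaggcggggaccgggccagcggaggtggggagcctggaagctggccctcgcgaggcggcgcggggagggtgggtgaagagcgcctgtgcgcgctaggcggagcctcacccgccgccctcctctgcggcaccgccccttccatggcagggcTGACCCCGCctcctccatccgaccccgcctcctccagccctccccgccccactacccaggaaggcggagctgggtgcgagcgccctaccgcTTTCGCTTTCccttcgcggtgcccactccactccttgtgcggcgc
PSME2, chr14:24146561-24146860, minus strand: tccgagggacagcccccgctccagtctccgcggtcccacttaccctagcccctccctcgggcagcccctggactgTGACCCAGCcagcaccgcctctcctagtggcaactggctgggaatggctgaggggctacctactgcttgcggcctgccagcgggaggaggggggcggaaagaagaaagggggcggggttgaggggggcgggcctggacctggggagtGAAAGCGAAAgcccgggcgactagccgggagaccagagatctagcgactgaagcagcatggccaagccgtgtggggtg

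The PSMG1 promoter held TGACAGCGC at position −183, counted from 0 at the annotated start, and PSMD12 held TGACGCTGC at −165 and an ETS match at −8. The promoters of PSMB8, PSMB10, PSME1 and PSME2 held the identical 10 bases TTTCGCTTTC or their reverse complement GAAAGCGAAA, at positions −4, −21, 5 and −28 in that order of genes. PSMG4 held them too, at −33, so that 5 members shared an element found in 35 of the 35116 RefSeq promoters searched, or 0.0997%. This element was singled out after it was seen in these sequences. PSMB8 had a further annotated promoter without any of the 3 motifs.

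Across the SNS-032 and DMSO libraries, proteasome transcripts were lower with SNS-032 in most roles, but by very unequal amounts. PSMG1, which starts assembly of the alpha ring, and PSMB5, the chymotrypsin-like subunit, kept 8.56% and 11.0% of their DMSO level, while the lid subunit PSMD12 stood at 233% of its DMSO level. At an adjusted p under 0.05 from limma, 38 of the 49 tested members were lower with SNS-032 and 7 were higher, and 4 passed in neither direction. Of all genes tested, 49.3% were lower and 39.9% were higher by the same rule. The median log2 fold change on the log2(FPKM + 1) scale was −0.71 over the members, with quartiles of −1.48 and −0.16, and −0.14 over all genes tested, with quartiles of −0.84 and 0.68.

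With an adjusted p under 0.001 and a log2 fold change of at least 2 in either direction, 7 members were lower and 0 were higher, where 2.43% of all genes were lower and 3.52% higher. The 7 were PSMG1, PSMB5, PSMA4, PSMB8, PSMB10, PSMC3 and PSMB9. The SNS-032 libraries lay wholly below the DMSO libraries for 38 members and wholly above them for 7, against 49.5% and 40.2% of all genes tested. Because the family was chosen from this contrast, nothing is read from these shares.

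**Figure D1:**
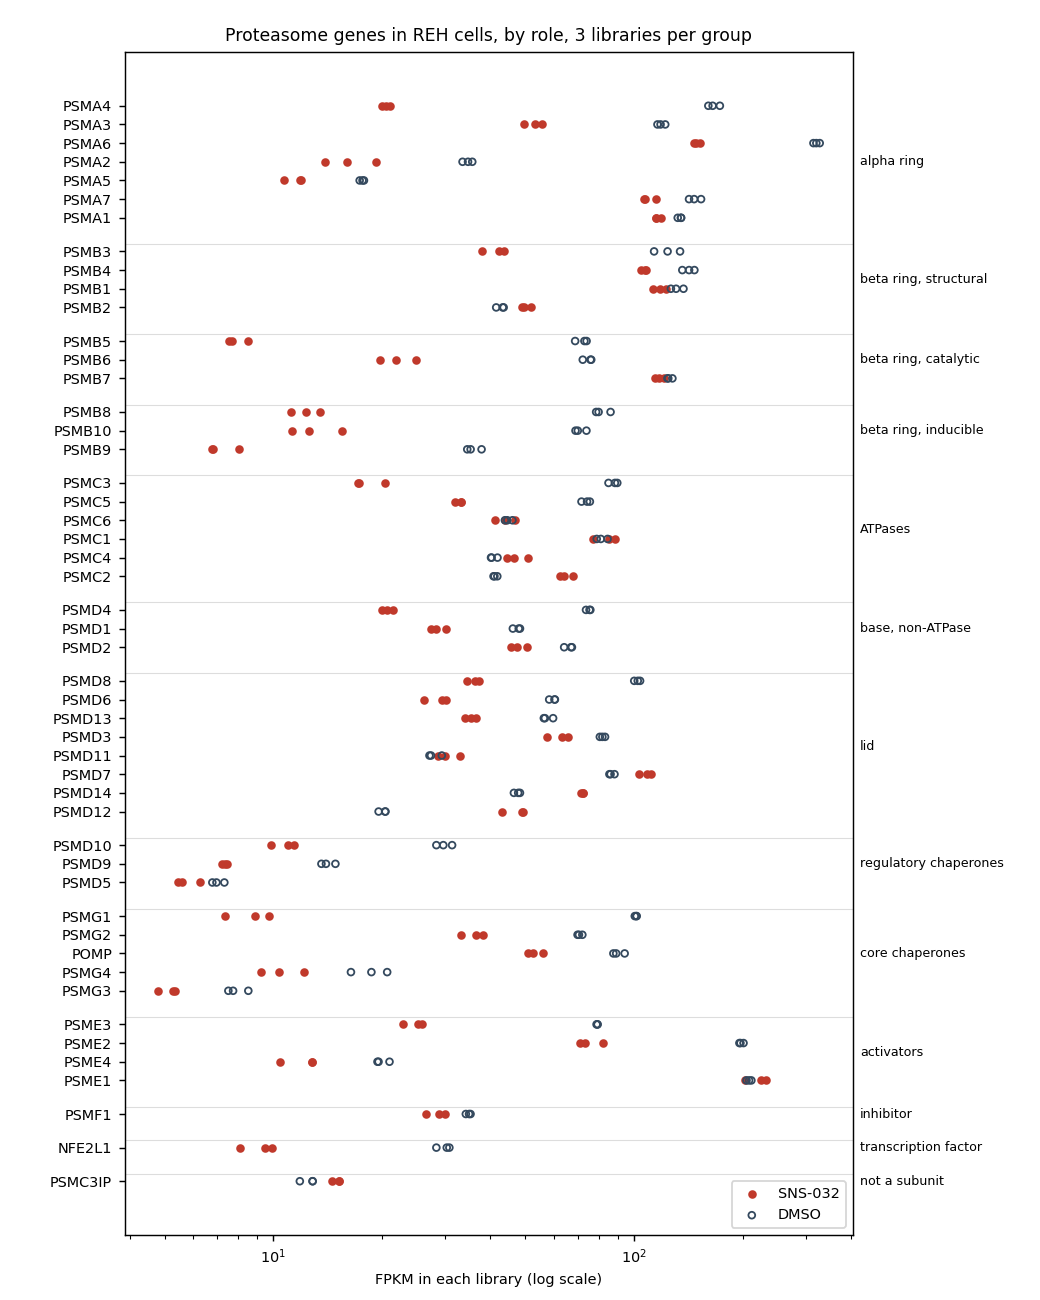
FPKM of each tested member on a log axis, 1 point per library, filled for SNS-032 and open for DMSO, with 3 libraries per group and genes sorted by fold change within each role. PSMG1, PSMB5 and PSMA4 show the widest gaps to the left of DMSO, and PSMD12 the widest gap to the right of it.

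The members together made up 0.461%, 0.487% and 0.497% of the summed FPKM in SNS-032 replicates 1 to 3, against 0.824%, 0.828% and 0.817% in DMSO replicates 1 to 3. Every SNS-032 library was below every DMSO library. Within the groups the replicates lay close together, with a median coefficient of variation of 6.13% over the 49 members with SNS-032 and of 2.71% with DMSO. The widest spread was that of PSMB10 with SNS-032, at 16.7%, and that of PSMG4 with DMSO, at 11.5%. SNS-032 replicate 1 was the lowest of its group for 27 of the 49 members.

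All 7 tested alpha subunits were lower with SNS-032, at a median of −1.04 on the log2 scale, although the call of PSMA1 was lost at −0.06 when every library was centred on its median. The alpha subunits form the outer rings, whose gate controls entry into the barrel. PSMA8, the testis form, was not analysed here. PSMA4 had 20.48, 21.08 and 20.08 FPKM with SNS-032, against 165.1, 160.63 and 172.89 FPKM with DMSO. The SNS-032 libraries lay far below all DMSO libraries, and the mean was 8.09-fold lower, with a log2 fold change of −2.96 ± 0.045 (SE). PSMA1 had 115.22, 115.2 and 118.69 FPKM with SNS-032, against 134.86, 135.04 and 132.13 FPKM with DMSO, a log2 fold change of −0.20 ± 0.037. Here too the groups did not overlap, but the gap was small. PSMA6, the most abundant transcript of the core in every library, averaged 149 ± 2.65 FPKM with SNS-032 and 320.4 ± 6.42 FPKM with DMSO (SD, n = 3 each). PSMA6 has 4 annotated pseudogenes and shares 14.1% of its exonic bases with a protein-coding model on the same strand, so its level is uncertain.

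The other alpha subunits fell by values between these. The log2 fold change was −1.16 ± 0.049 for PSMA3, −1.10 ± 0.038 for PSMA6, −1.04 ± 0.093 for PSMA2, −0.57 ± 0.058 for PSMA5 and −0.43 ± 0.046 for PSMA7. Summed over the ring, the 7 transcripts had 476 ± 14.2 FPKM with SNS-032 and 939 ± 5.71 FPKM with DMSO, or 50.7% of the DMSO level. The proteins of the ring are present in equal numbers in the assembled particle. The transcripts spanned a 12.3- to 13.8-fold range with SNS-032 and a 17.8- to 18.4-fold range with DMSO. The SD of their log2 FPKM went the other way, at 1.54, 1.53 and 1.5 with SNS-032 and 1.44, 1.43 and 1.46 with DMSO.

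The 4 beta subunits without catalytic activity, which build the inner rings, were split. PSMB3 had 42.36, 37.99 and 43.57 FPKM with SNS-032, against 123.84, 134.11 and 113.63 FPKM with DMSO, a log2 fold change of −1.56 ± 0.066. PSMB2 had 49.44, 51.86 and 49.04 FPKM with SNS-032, against 41.49, 43.51 and 43.25 FPKM with DMSO, a log2 fold change of 0.22 ± 0.045. PSMB2 was the only core subunit called higher, and neither gene's groups overlapped. PSMB4 fell by 0.40 ± 0.042 on the log2 scale and PSMB1 fell by 0.16 ± 0.046, a call lost with median centring, at −0.02.

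The catalytic subunits of the constitutive core ranged from the second lowest log2 fold change of the family to the value nearest the threshold. PSMB5, the subunit that bortezomib binds, had 7.54, 7.69 and 8.51 FPKM with SNS-032, against 68.66, 72.85 and 73.86 FPKM with DMSO. It was 9.07-fold lower in the mean, with a log2 fold change of −3.03 ± 0.057. PSMB6, which cuts after acidic residues, had 19.73, 21.89 and 24.9 FPKM with SNS-032, against 72.08, 75.74 and 76.08 FPKM with DMSO, or 29.7% of the DMSO level. Both genes were clearly separated between the groups. PSMB7, the trypsin-like subunit, had 121.26, 117.46 and 114.3 FPKM with SNS-032, against 123.75, 124.4 and 127.71 FPKM with DMSO. Its groups lay next to each other without overlap, at 93.9% of the DMSO level, and its log2 fold change of −0.09 ± 0.040 reached an adjusted p of 0.0491 with limma. Leaving out DMSO replicate 1, 2 or 3 gave PSMB7 an adjusted p of 0.0733, 0.0906 or 0.171 with limma, and leaving out SNS-032 replicate 2 or 3 gave 0.0897 or 0.144. With median centring its log2 fold change was 0.05.

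In the same 14-subunit core, PSMB5 was thus the least abundant transcript with SNS-032, a place that PSMA5 held with DMSO. The ratio of PSMB5 to PSMB7 was 0.0622, 0.0655 and 0.0745 with SNS-032 and 0.555, 0.586 and 0.578 with DMSO. The SD of the log2 FPKM over the 14 constitutive core subunits was 1.46, 1.45 and 1.39 with SNS-032 and 1.07, 1.07 and 1.08 with DMSO. By the SD the subunits lay further apart in each SNS-032 library. The ratio of the highest to the lowest was 19.7, 19.1 and 17.9 with SNS-032 and 18.3, 17.8 and 18.4 with DMSO. These ratios overlapped between the groups. Their summed FPKM was 940 ± 17.4 with SNS-032 and 1650 ± 15.8 with DMSO, or 56.9%.

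The 3 tested inducible subunits were all lower with SNS-032, and their median log2 fold change of −2.36 was the lowest of the roles. PSMB8, which replaces PSMB5, had 13.44, 11.18 and 12.33 FPKM with SNS-032, against 79.74, 86.07 and 78.51 FPKM with DMSO, or 15.1% of the DMSO level. PSMB9, which replaces PSMB6, had 8.02, 6.83 and 6.76 FPKM with SNS-032, against 35.24, 37.79 and 34.49 FPKM with DMSO, or 20.1%. PSMB10, which replaces PSMB7, had 15.53, 12.53 and 11.28 FPKM with SNS-032, against 68.82, 73.79 and 69.82 FPKM with DMSO, or 18.5%. All SNS-032 libraries of these genes were far below all DMSO libraries, and replicate 1 was the highest of the SNS-032 group for each of the 3, unlike for the family at large.

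The inducible forms made up 19.9%, 17.2% and 17.1% of the summed FPKM of the catalytic beta subunits with SNS-032, against 41.0%, 42.0% and 39.7% with DMSO. The share was lower in every SNS-032 library, but the pairs differed. The ratio of PSMB10 to PSMB7 was 0.128, 0.107 and 0.0987 with SNS-032 and 0.556, 0.593 and 0.547 with DMSO. The ratio of PSMB9 to PSMB6 was 0.406, 0.312 and 0.271 with SNS-032 and 0.489, 0.499 and 0.453 with DMSO. The ratio of PSMB8 to PSMB5 went the other way, at 1.78, 1.45 and 1.45 with SNS-032 and 1.16, 1.18 and 1.06 with DMSO, because PSMB5 had the lower fold change of the pair.

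**Figure D2:**
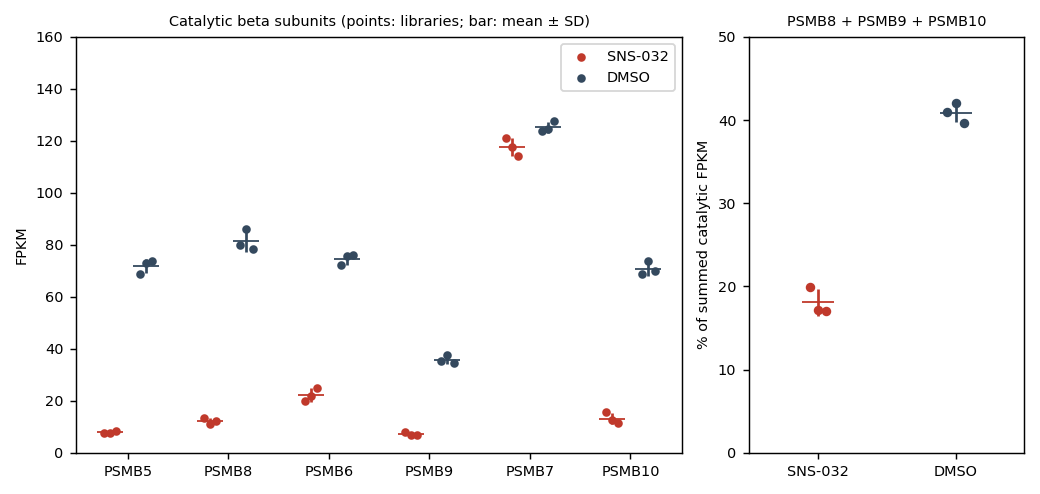
Left, FPKM of the catalytic beta subunits per library, each constitutive subunit beside its inducible counterpart, with SNS-032 left of DMSO and bars for the mean ± SD of 3 libraries. Right, PSMB8, PSMB9 and PSMB10 as a percentage of the summed FPKM of the 6 catalytic genes, at 17.1% to 19.9% with SNS-032 and 39.7% to 42.0% with DMSO.

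PSMB8 and PSMB9 lie on opposite strands in the MHC region of chromosome 6, at 32840717 to 32844703 and 32844136 to 32859585 on GRCh38, together with the peptide transporter genes TAP1 and TAP2. TAP1, which is known to share a bidirectional promoter with PSMB9, had 6.07, 6.27 and 5.91 FPKM with SNS-032, against 19.6, 19.34 and 20.53 FPKM with DMSO, and TAP2 had a log2 fold change of −0.95 ± 0.061, both named after their values were seen. All 4 genes of the cluster were thus lower with SNS-032. PSMB10 lies apart from them on chromosome 16, at 67934502 to 67937087. In GENCODE v29, 20.6% of the exonic bases of PSMB8 are shared with the antisense gene PSMB8-AS1 and 34.8% of those of PSMB10 with another protein-coding model on the same strand, and how the reads of such bases were assigned is not given in the sources used here.

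The regulatory particle was less shifted than the core. The 17 subunits selected by symbol summed to 806 ± 27.8 FPKM with SNS-032 and 1041 ± 3.49 FPKM with DMSO, or 77.5%. The sum leaves out ADRM1 and SEM1, further subunits of the particle. Its 6 ATPases, the ring of motor subunits that unfolds the substrate, had a median of 0.01 on the log2 scale, with 2 genes lower, 2 higher and 2 in neither direction. PSMC3 had 17.15, 20.44 and 17.27 FPKM with SNS-032, against 84.95, 88.5 and 89.84 FPKM with DMSO, a log2 fold change of −2.21 ± 0.064. PSMC2 had 62.4, 63.96 and 67.69 FPKM with SNS-032, against 41.03, 40.79 and 41.78 FPKM with DMSO, a log2 fold change of 0.64 ± 0.045. Neither gene's groups overlapped, so these partners of the same ring moved in opposite directions.

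PSMC5 fell by 1.15 ± 0.044 on the log2 scale and PSMC4 was higher by 0.21 ± 0.054. PSMC1 and PSMC6 had log2 fold changes of 0.04 ± 0.054 and −0.03 ± 0.053, with overlapping groups and adjusted p of 0.53 and 0.643 from limma. PSMC1 has 13 annotated pseudogenes, and 75.8% of its exonic bases are shared with NRDE2 on the opposite strand, so its level is uncertain. Without SNS-032 replicate 2 the values of PSMC1 and PSMC6 were −0.01 and 0.02. PSMC3 was the least abundant ATPase transcript in each SNS-032 library and the most abundant in each DMSO library. The highest ATPase transcript exceeded the lowest 4.49-, 4.33- and 4.94-fold with SNS-032 and 2.07-, 2.2- and 2.24-fold with DMSO.

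The 3 other base subunits selected by symbol were all lower with SNS-032, at a median of −0.71 on the log2 scale. ADRM1, a further base subunit outside the symbol rule, was higher, with a log2 fold change of 1.23 ± 0.048. PSMD4, a receptor for ubiquitin chains, had 20.04, 21.51 and 20.65 FPKM with SNS-032, against 75.27, 73.59 and 75.65 FPKM with DMSO, or 27.7% of the DMSO level. PSMD2, the large scaffold subunit, had 45.48, 47.33 and 50.59 FPKM with SNS-032, against 66.88, 67.26 and 64.01 FPKM with DMSO, a log2 fold change of −0.46 ± 0.049. The groups of both were apart. PSMD1, the other scaffold subunit, fell by 0.71 ± 0.050 on the log2 scale.

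The 8 lid subunits selected by symbol included 3 of the 6 proteasome genes of the selection called higher. Their median log2 fold change of −0.14 equalled that of all genes. PSMD12, a structural subunit of the lid, had 42.97, 48.89 and 49.29 FPKM with SNS-032, against 20.42, 19.59 and 20.46 FPKM with DMSO. It was 2.33-fold higher in the mean, with a log2 fold change of 1.18 ± 0.059 and no overlap. PSMD8 had 34.54, 37.15 and 36.26 FPKM with SNS-032, against 100.1, 103.91 and 102.39 FPKM with DMSO, a log2 fold change of −1.48 ± 0.044. Of the 17 regulatory transcripts, PSMD7 was the most and PSMC3 the least abundant in every SNS-032 library, places that PSMD8 and PSMD12 held in every DMSO library. Among the 8 lid transcripts the highest exceeded the lowest 3.96-, 3.79- and 3.79-fold with SNS-032 and 4.9-, 5.3- and 5.0-fold with DMSO.

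PSMD14, the enzyme that cleaves ubiquitin chains from the substrate, was higher by 0.59 ± 0.041 on the log2 scale. PSMD7, its inactive partner, was higher by 0.31 ± 0.042. In GENCODE v29, 30.7% of the exonic bases of PSMD7 are shared with a transcript on the opposite strand. PSMD6, PSMD13 and PSMD3 fell by 1.04 ± 0.056, 0.69 ± 0.047 and 0.40 ± 0.051. PSMD11 had a log2 fold change of 0.12 ± 0.060 and an adjusted p of 0.0708 with limma, and passed the threshold without DMSO replicate 1 (0.0494) or without SNS-032 replicate 2 (0.0287). The lid genes selected by symbol summed to 419 ± 15.7 FPKM with SNS-032 and 483 ± 1.31 FPKM with DMSO, or 86.7%. This was the smallest relative difference of the multi-gene roles, for the genes summed only. The sum leaves out the lid subunit SEM1, which averaged 65.21 ± 3.91 FPKM with SNS-032 and 150 ± 15.4 FPKM with DMSO.

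**Figure D3:**
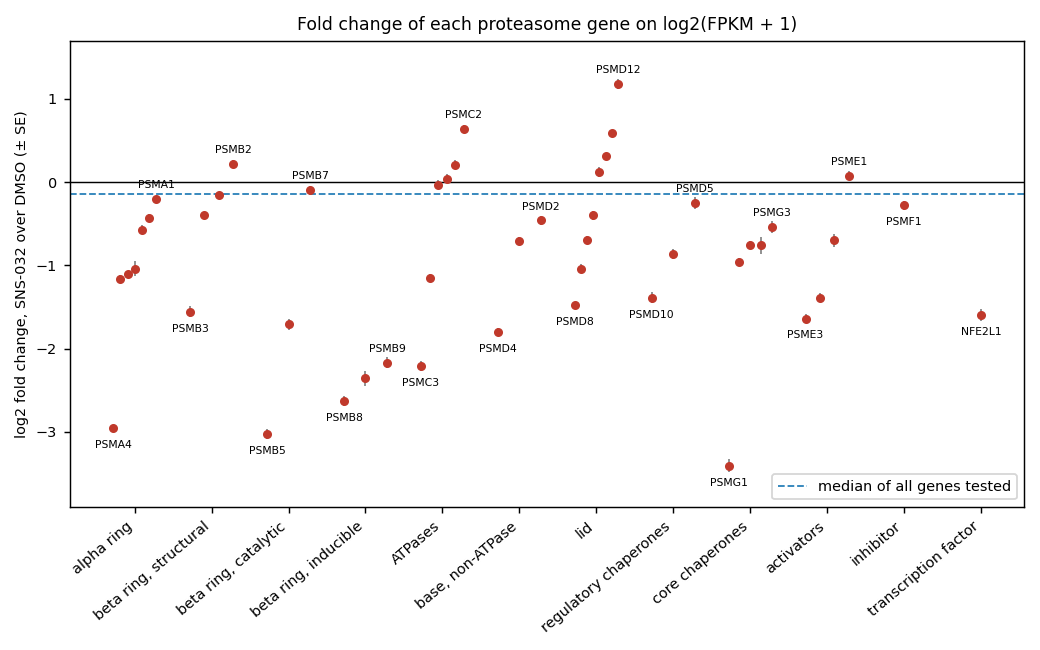
Log2 fold change of each tested member, SNS-032 over DMSO, on the log2(FPKM + 1) scale with its standard error from limma, by role, with the dashed line at the median of all genes tested, −0.14. The lid and the ATPases reach from −1.48 to 1.18 and from −2.21 to 0.64, while all 3 tested inducible subunits lie between −2.63 and −2.17.

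The assembly chaperones bind only immature particles and leave before the proteasome is complete. The 5 chaperones of the core were all lower with SNS-032, with a median of −0.76 on the log2 scale and a summed level of 113 ± 6.27 FPKM with SNS-032 and 289 ± 6.53 FPKM with DMSO. PSMG1 had 7.35, 8.9 and 9.73 FPKM with SNS-032, against 100.47, 101.67 and 101.44 FPKM with DMSO, and was 11.7-fold lower in the mean, with a log2 fold change of −3.41 ± 0.078. It lies at 39174769 to 39183851 on chromosome 21. PSMG2, with which PSMG1 forms a stable pair, had 33.23, 36.4 and 38.1 FPKM with SNS-032, against 70.34, 71.89 and 69.73 FPKM with DMSO, a log2 fold change of −0.96 ± 0.053. The ratio of PSMG1 to PSMG2 was 0.221, 0.245 and 0.255 with SNS-032 and 1.43, 1.41 and 1.45 with DMSO, so the order of these partners was turned round in every library.

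PSMG3 and PSMG4 form the other pair of alpha ring chaperones. PSMG3 had 4.79, 5.28 and 5.34 FPKM with SNS-032, against 7.51, 7.74 and 8.53 FPKM with DMSO, a log2 fold change of −0.54 ± 0.071. PSMG4 had 9.23, 12.14 and 10.37 FPKM with SNS-032, against 16.42, 20.69 and 18.71 FPKM with DMSO, a log2 fold change of −0.76 ± 0.099. The groups of both were apart, and the partners differed less from each other than PSMG1 from PSMG2. POMP, which guides the beta subunits into place, had 52.47, 50.79 and 56.06 FPKM with SNS-032, against 89.2, 94.17 and 87.63 FPKM with DMSO, a log2 fold change of −0.76 ± 0.049.

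The 3 chaperones of the ATPase ring were lower as well. PSMD10, also known as the oncoprotein gankyrin, had 9.88, 11.42 and 10.98 FPKM with SNS-032, against 31.31, 28.32 and 29.6 FPKM with DMSO, or 36.2% of the DMSO level. PSMD9 had 7.22, 7.45 and 7.36 FPKM with SNS-032, against 13.6, 14.87 and 14 FPKM with DMSO, a log2 fold change of −0.86 ± 0.059. PSMD5 had 5.46, 5.58 and 6.26 FPKM with SNS-032, against 6.96, 7.32 and 6.78 FPKM with DMSO, a log2 fold change of −0.25 ± 0.069. The groups did not overlap for any of them, but those of PSMD5 nearly met, and its call was lost with median centring, at −0.11.

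Activators open the gate of the core without using ATP. PSME1 and PSME2 encode the alpha and beta subunits of the same interferon-inducible ring. They lie near each other on chromosome 14, at 24136158 to 24138967 and 24143362 to 24147570. PSME1 had 231.8, 203.28 and 224.31 FPKM with SNS-032, against 204.95, 211.4 and 208.34 FPKM with DMSO. Its groups overlapped, with a log2 fold change of 0.08 ± 0.049 and an adjusted p of 0.165 from limma, which became 0.0134 with a log2 fold change of 0.13 when SNS-032 replicate 2, its lowest library, was left out. PSME2, given in full after its values were seen, had 81.91, 73.22 and 70.71 FPKM with SNS-032, against 197.16, 201.06 and 195.86 FPKM with DMSO, a log2 fold change of −1.39 ± 0.052. The ratio of PSME2 to PSME1 was 0.353, 0.360 and 0.315 with SNS-032 and 0.962, 0.951 and 0.940 with DMSO.

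PSME3, the nuclear activator, had 22.94, 25.8 and 25.21 FPKM with SNS-032, against 78.72, 79.12 and 79.22 FPKM with DMSO, or 31.2%. PSME4, a large single-chain activator, fell by 0.70 ± 0.077 on the log2 scale. PSMF1, an inhibitor of the core, had 26.55, 28.89 and 29.89 FPKM with SNS-032, against 34.18, 35.22 and 34.89 FPKM with DMSO, a log2 fold change of −0.28 ± 0.053. PSMF1 was lower in every SNS-032 library, by less than PSME3. The recombination cofactor PSMC3IP, which is no proteasome gene, had a log2 fold change of 0.24 ± 0.057 and accounts for the seventh call in the upward direction.

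**Figure D4:**
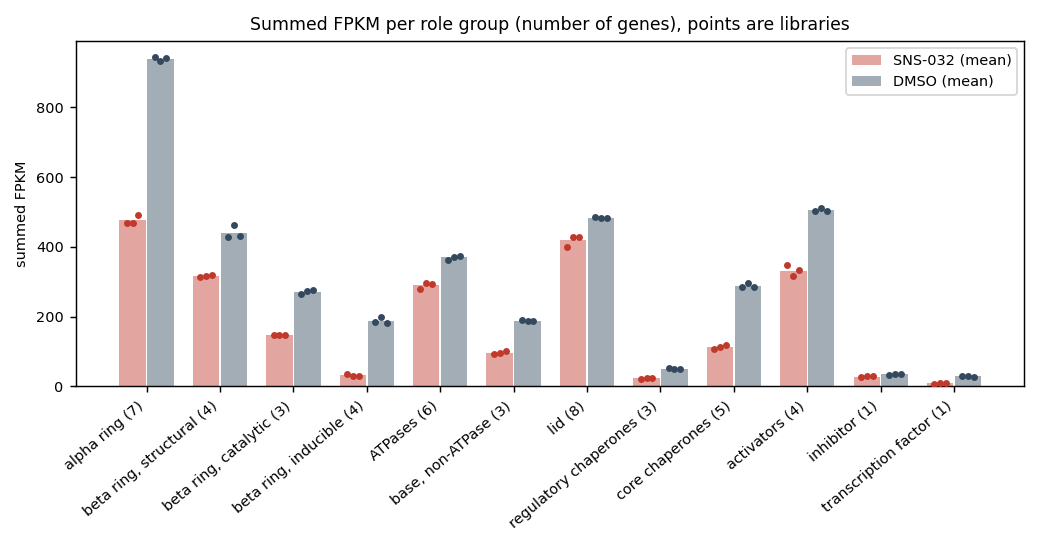
Summed FPKM of each role, with bars for the mean of 3 libraries, SNS-032 left of DMSO, points for the libraries, and the number of genes in parentheses. The lid, without SEM1, reached 86.7% of its DMSO sum and the ATPases 78.7%, while the inducible subunits, PSMB11 included, reached 17.4%.

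NFE2L1 had 8.07, 9.92 and 9.5 FPKM with SNS-032, against 30.26, 30.77 and 28.32 FPKM with DMSO. The groups were far apart, at 30.8% of the DMSO level and a log2 fold change of −1.60 ± 0.072. The NFE2L1 protein is made at the endoplasmic reticulum, drawn out by SYVN1, SEL1L and VCP, freed of its sugars by NGLY1 and cut by DDI2 before it enters the nucleus, and FBXW7 marks it for degradation. Of 8 genes on this route and its relatives, 4 were lower and 4 higher, where 49.3% and 39.9% of all genes were. The 4 higher include NFE2L3, which passed the filter only through the SNS-032 libraries. VCP had 26.55, 27.41 and 26.66 FPKM with SNS-032, against 72.98, 71.86 and 73.68 FPKM with DMSO, a log2 fold change of −1.41 ± 0.043. NGLY1 had 9.52, 8.19 and 7.67 FPKM with SNS-032, against 24.99, 23.67 and 23.83 FPKM with DMSO, a log2 fold change of −1.42 ± 0.072.

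SEL1L and DDI2 had log2 fold changes of −0.92 ± 0.062 and −0.29 ± 0.1, and the groups of DDI2 overlapped. SYVN1 was higher by 0.93 ± 0.039 on the log2 scale. FBXW7, the ubiquitin ligase subunit, had 29.06, 27.77 and 28.94 FPKM with SNS-032, against 7.41, 7.39 and 6.79 FPKM with DMSO, a log2 fold change of 1.85 ± 0.056. NFE2L2, the factor of the oxidative stress response, had 54.17, 61.68 and 58.57 FPKM with SNS-032, against 29.44, 25.21 and 25.23 FPKM with DMSO. NFE2L3 had 5.72, 6.03 and 6.68 FPKM with SNS-032, against 0.45, 0.49 and 0.44 FPKM with DMSO. With DMSO it lay under the filter of 1 FPKM, so it entered the test only through the group in which it was high, and no fold is given.

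Of a wider list of 38 genes around the proteasome, 37 were tested, of which 25 were lower, 10 higher and 2 in neither direction. Of all genes tested, 49.3% were lower and 39.9% higher. The 10 include NFE2L3, which passed the filter only through the SNS-032 libraries. The median of the list was −0.83 on the log2 scale against −0.14 over all genes. The list includes the remaining subunits. ADRM1, a ubiquitin receptor of the base, had 168.71, 172.09 and 153.43 FPKM with SNS-032, against 68.69, 70.79 and 69.92 FPKM with DMSO, a log2 fold change of 1.23 ± 0.048. SEM1, the smallest lid subunit, had a log2 fold change of −1.19 ± 0.069. UCHL5, the deubiquitinase that ADRM1 recruits, had 31.2% of its DMSO level and a log2 fold change of −1.61 ± 0.056, so the receptor and its enzyme moved in opposite directions. USP14, the other deubiquitinase bound to the base, was higher by 0.30 ± 0.052. AKIRIN2, which carries proteasomes into the nucleus, was higher by 1.02 ± 0.055. SEM1, USP14 and AKIRIN2 were named after their values were seen.

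The genes examined that encode ubiquitin itself were divided. UBB, a polyubiquitin gene, had 176.75, 177.31 and 171.69 FPKM with SNS-032, against 941.53, 922.45 and 895.17 FPKM with DMSO, a log2 fold change of −2.38 ± 0.039. The SNS-032 libraries lay far below all DMSO libraries. RPS27A, which encodes ubiquitin fused to a ribosomal protein, was higher with SNS-032, with a log2 fold change of 0.61 ± 0.047, and was named after its values were seen. The ubiquitin sequence is shared between them, so the split of reads is uncertain. UFD1, a cofactor of VCP, fell by 1.59 ± 0.050 on the log2 scale, and ECPAS, an adaptor that binds the assembled proteasome, fell by 1.56 ± 0.057. Both ubiquitin-activating enzymes, UBA1 and UBA6, were lower, with log2 fold changes of −1.07 ± 0.040 and −1.21 ± 0.062, and were named after their values were seen.

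**Figure D5:**
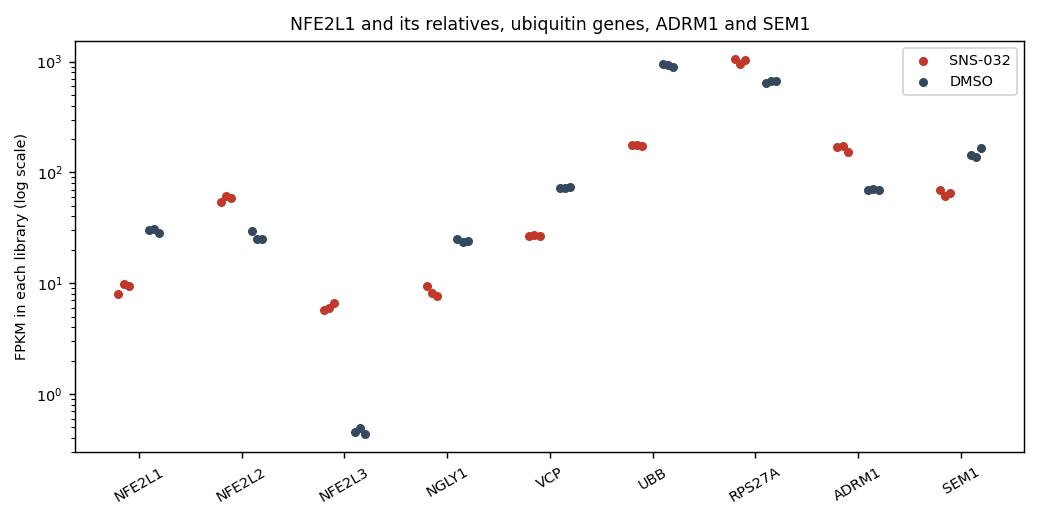
FPKM per library on a log axis for NFE2L1, its relatives NFE2L2 and NFE2L3, VCP, NGLY1, the ubiquitin genes UBB and RPS27A, ADRM1 and SEM1, with SNS-032 left of DMSO and 3 libraries each. NFE2L1 lies lower with SNS-032 while NFE2L2 and NFE2L3 lie higher, and UBB lies lower while RPS27A lies higher.

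Promoter motifs and gene spans were not used in the selection of the family. RefSeq promoters were matched for 44 of the 50 members, by gene identifier, and 12 motifs were searched on both strands, with overlaps between motifs allowed. PSMA7, PSMB1, PSMB6, PSMB7, PSMD4 and PSMG3 were not among them. TGACNNNGC was in the promoters of 15 members, or 34.1%, against 16.1% of the genes whose RefSeq promoters were searched. A gene counted where any of its promoters held the motif. Those 15 comprised 12 genes lower with SNS-032, 2 higher and 1 in neither direction, with a median of −0.86 on the log2 scale. The 28 tested members without it comprised 20 lower, 5 higher and 3 in neither direction, with a median of −0.72. By the same threshold 49.3% of all genes tested were lower and 39.9% higher. PSMG1 and PSMD12, at the opposite ends of the family, both held it.

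The ETS site CCGGAAG was in 16 members, or 36.4%, against 12.2% of those genes. Of these 16, 5 were higher, 9 lower and 2 in neither direction, at a median of −0.48 on the log2 scale. The 5 include PSMC3IP, which is no proteasome gene. Of the 27 tested members without the site 2 were higher, 23 lower and 2 in neither direction, with a median of −1.15. Over all genes tested, 39.9% were higher and 49.3% lower. TTTCNNTTTC was in 7 members, or 15.9%, against 4.38% of the genes whose RefSeq promoters were searched. Of the 36 tested members without it, 26 were lower. Of the 7 with it, 6 were lower. The exception was PSME1, whose promoter held both the TGACNNNGC and the TTTCNNTTTC match, as did that of PSME2, printed above. The heat shock element and the cyclic AMP response element TGACGTCA were each in 0 of the 44. A match to these letters is a description of the sequence, and binding was not measured.

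The members lay on many chromosomes, with 9 on chromosome 17 and 8 on chromosome 14. Promoters on chromosome 8 were left out of the motif search and of its shares. The median span of the gene was 25.1 kb for members that were higher, 15.4 kb for those lower and 20.1 kb for the rest. Over the 49 tested members the log2 span and the log2 fold change had a Spearman rho of 0.35, given as a description of genes that share the same libraries. Of the 50 members, 12 have annotated pseudogenes, 32 in all, and 8 share at least 20% of their exonic bases with another gene, so the split of reads among these is uncertain.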

How the data were processed

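RNA of REH cells was extracted with TRIzol and sequenced on a BGISEQ platform. The authors deposited FPKM per gene and library. The paper names Bowtie2 and HISAT as mappers and RSEM for the quantification, and the submitters' processing notes name HISAT2 2.0.4, RSEM and GRCh38.p12. The table also holds the authors' own log2 fold changes, p-values and q-values, which were not used. Strandedness and duplicate handling are not given in the sources used here, and low FPKM values did not yield whole reads, so depth and counting error are unknown.

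FPKM were used as deposited, as log2(FPKM + 1). A gene was kept when its mean over the SNS-032 or the DMSO libraries was 1 FPKM or more. The groups were compared with limma 3.58.1 (R 4.3.3) using a trended prior and robust estimation, a procedure tested on simulated data. P-values were adjusted by the Benjamini-Hochberg method over 12239 genes. Fold changes on this scale understate changes of low genes. Percentages and folds between means are on linear FPKM.

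The members and lists were chosen with earlier results of these data known. Given per library were the 6 catalytic subunits tested, the lowest and highest log2 fold change of each role, each assembly chaperone, PSMF1 and NFE2L1. Of the wider list, the 4 called genes at either end whose larger group mean was 5 FPKM or more and all genes of the NFE2L1 route were named. Gene models came from GENCODE v29 on GRCh38 and promoters from RefSeq on GRCh38.p14. Alternatives were a pseudocount of 0.1, no filter, rescaling to a total of 1000000, median centring, an untrended test, the replicate number as a block, and leaving out each library. Some genes of the lists are not reported here.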

Additional observations from a re-analysis of the deposited data

How the results depend on the processing

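Of the 49 tested members, 41 kept their direction and their side of the threshold under all 12 alternatives. Leaving out each library in turn gave 7 to 9 members higher and 37 to 38 lower, and a median between −0.75 and −0.69 on the log2 scale. A pseudocount of 0.1, no filter, rescaling to a common total and an untrended test gave 7 higher and 37 or 38 lower. Median centring, which adds the shift of −0.14 of all genes back, gave 10 higher and 34 lower and moved the median of the members to −0.58. Under it PSMB7 and PSMC6 turned to 0.05 and 0.11 (adjusted p of 0.277 and 0.073 with limma), PSMA1, PSMB1 and PSMD5 lost their calls at −0.06, −0.02 and −0.11, and PSMC1, PSMD11 and PSME1 passed at 0.17, 0.26 and 0.21. PSMC1 turned to −0.01 after rescaling and also without SNS-032 replicate 2, where PSMC6 turned to 0.02, and leaving out each library gave ranges of −0.01 to 0.09 for PSMC1 and −0.07 to 0.02 for PSMC6. With no filter the median of all genes was 0.02, over 18198 genes. Rescaling lowered the log2 ratios of summed FPKM of the roles by about the shift in library totals, for example to −1.03 for the alpha ring, −0.86 for the 14 core subunits and −0.42 for the 17 regulatory subunits.

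The labels give replicate numbers but name no pairing of the samples. Deviations of SNS-032 and DMSO libraries with the same number correlated at −0.119, 0.0136 and −0.0164. These are deviations from means of 3 libraries, so the correlations cannot decide whether the samples were paired. With the replicate number as a block, 7 members were higher and 37 lower, at a median of −0.71, and PSMB7 alone lost its call (adjusted p of 0.0972 with limma).

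With 3 libraries per group, no read counts and no external standard, values describe transcript levels relative to each library and not amounts per cell or protein. Library 1 of SNS-032 tended to be low across the family.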
